A study of Mus musculus with 13 samples.

Results

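Genes of endocytic uptake and lipoprotein transport in the visceral endoderm, 10 in all, were followed across mouse extraembryonic and epiblast stem cell lines. They are Cubn, Amn, Lrp2, Afp, Ttr, Apoa1, Apoa4, Apob, Apoe and Apom. Each was chosen by name, as the row of the gene count table whose Ensembl identifier carries that symbol in the GRCm38 annotation, so that 10 of 38377 identifiers were taken and all 10 were found. Bulk RNA was sequenced from female extraembryonic endoderm (XEN) stem cells and female epiblast stem cells (EpiSC), in 13 libraries of 6 groups. The XEN groups were untreated wild type (2 libraries), untreated with a deletion of the paternal Xist allele (dXist, 3 libraries), wild type given 5-aza-2'-deoxycytidine at 20 uM (Aza, 2 libraries), and dXist given the same dose (2 libraries). The EpiSC groups were untreated wild type (2 libraries) and untreated with a heterozygous Xist deletion (dXist, 2 libraries). XEN cells grew in serum-containing DMEM, and EpiSC on Matrigel with FGF2 and activin, so culture differs wherever the cell types are compared. Nothing in the labels says whether replicates are separate clones or cultures, so p-values measure the spread between these libraries, which may be technical. All values are from bulk RNA, in which fewer cells of a type and less RNA per cell cannot be told apart.

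The visceral endoderm surrounds the early embryo and feeds it before a placenta is at work. Cubilin (Cubn) is a large membrane-associated receptor that amnionless (Amn) carries to the cell surface, and megalin (Lrp2), a giant receptor of the LDL receptor family, works with them to take up proteins and lipid carriers from the maternal side. The same epithelium secretes the carriers that the liver later makes: alpha-fetoprotein (Afp), transthyretin (Ttr), which binds thyroid hormone and retinol-binding protein, and the apolipoproteins. Xist is the long RNA that coats an X chromosome and shuts it down in females, and 5-aza-2'-deoxycytidine is a nucleoside that traps DNA methyltransferases and lowers CpG methylation.

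The libraries differed in ways that touch these genes. Totals ran from 5848454 to 35247432 counts, with the fewest in the treated wild-type XEN libraries. RNAs without long poly(A) tails (mitochondrial rRNA and Rn7sk) made up 10.4% to 13.5% of counts in 4 libraries, here called total-like: treated wild-type XEN replicates 1 and 2, and replicate 2 of each EpiSC group, and at most 0.279% in the other 9, called polyA-like. Treatment and library type therefore cannot be told apart in wild-type XEN cells. Levels are given in scaled counts-per-million units (CPM). Groups do not overlap where every library of 1 group lies above every library of the other. The share of all genes for which this holds is not given, so it sets no gene apart. Xist was at 1.21 to 5.02 CPM in dXist XEN, against 1560 and 1701 CPM in wild-type XEN, and at 13.3 and 233 CPM in treated dXist replicates 1 and 2. The last value stands nearer to the wild type than any other dXist library, and changes called with it, and directions that turn, are also given without it. Those then rest on treated replicate 1 alone, and the 2 treated dXist libraries differed in other genes too. Over 16 parietal endoderm markers, replicates 1 and 2 held 37613 and 90688 CPM, against 99040 to 134661 CPM in untreated dXist. Of the untreated XEN libraries, 4, namely wild-type replicate 1 and dXist replicates 1 to 3, also held RNA of genes known from intestinal tissue, at 86.5 and at 219, 147 and 112 CPM summed over 23 genes. Wild-type replicate 2 held 2.08 CPM, with 14 of the 23 genes at 0 counts, the treated XEN libraries 5.14 to 6.93 CPM and the EpiSC libraries 8.38 to 16.1 CPM. This list was put together after its values were seen.

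XEN libraries carried a strong parietal signature beside a visceral one. Summed over 16 markers of parietal endoderm, the cells that lay down Reichert's membrane, wild-type XEN libraries held 98347 to 144922 CPM. Summed over 22 visceral endoderm markers other than the 10 genes, they held 1257 to 1926 CPM, with 2 of the 22 at 0 counts in both libraries. Wild-type EpiSC held 2563 to 2776 CPM of the parietal list and 290 to 407 CPM of the visceral list. Against EpiSC, all 11 primitive endoderm markers, 15 of 16 parietal markers and 14 of 20 visceral markers tested were called higher in XEN. Over all genes 14.1% were. Slc39a8 and Cdh1, of the visceral list, were called higher in EpiSC. Of 8 distal and anterior visceral endoderm markers tested, 4 were called higher in EpiSC and none lower, with 14.0 to 21.8 CPM over the 9 listed in wild-type XEN against 166 to 246 CPM in EpiSC. Afp, a defining visceral marker, was close to absent. Of 11 fibroblast markers tested, 9 were called higher in EpiSC and none lower, beside 16.8% of all genes higher. Their sum was 872 to 1048 CPM in wild-type EpiSC, 237 to 312 CPM in dXist EpiSC and 65.9 to 129 CPM in wild-type XEN. The part of such RNA in genes higher in EpiSC was not tested.

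Promoter windows are shown for 5 genes whose levels set the results below, Cubn, Lrp2, Apoa1, Apoa4 and Apob. Each is the 250 bases before the RefSeq start site, on GRCm38.p6, read 5′ to 3′ on the gene's strand. RefSeq windows were found for 9 of the 10 genes. Capitals mark CpG, the dinucleotide that DNA methyltransferases modify. Methylation itself was not measured.
Cubn, chr2:13491877-13492126, minus strand: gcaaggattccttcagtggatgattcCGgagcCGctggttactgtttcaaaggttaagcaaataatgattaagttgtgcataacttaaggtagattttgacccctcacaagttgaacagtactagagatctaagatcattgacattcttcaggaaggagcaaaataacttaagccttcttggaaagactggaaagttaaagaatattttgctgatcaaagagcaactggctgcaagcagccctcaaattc
Lrp2, chr2:69586030-69586279, minus strand: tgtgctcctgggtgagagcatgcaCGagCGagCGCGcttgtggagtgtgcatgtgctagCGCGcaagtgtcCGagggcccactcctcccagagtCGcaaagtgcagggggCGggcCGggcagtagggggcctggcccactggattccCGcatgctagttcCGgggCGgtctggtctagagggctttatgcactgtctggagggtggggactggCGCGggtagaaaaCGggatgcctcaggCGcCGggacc
Apoa1, chr9:46228380-46228629, plus strand: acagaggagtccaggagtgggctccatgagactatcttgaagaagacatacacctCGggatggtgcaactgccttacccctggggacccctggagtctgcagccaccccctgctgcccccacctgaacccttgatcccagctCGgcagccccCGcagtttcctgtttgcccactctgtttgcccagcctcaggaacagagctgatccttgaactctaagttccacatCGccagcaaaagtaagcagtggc
Apoa4, chr9:46240594-46240843, plus strand: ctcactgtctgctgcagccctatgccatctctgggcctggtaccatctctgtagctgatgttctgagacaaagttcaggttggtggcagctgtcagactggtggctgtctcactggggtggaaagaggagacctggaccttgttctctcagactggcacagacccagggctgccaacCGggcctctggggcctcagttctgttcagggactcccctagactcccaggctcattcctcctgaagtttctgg
Apob, chr12:7977427-7977676, plus strand: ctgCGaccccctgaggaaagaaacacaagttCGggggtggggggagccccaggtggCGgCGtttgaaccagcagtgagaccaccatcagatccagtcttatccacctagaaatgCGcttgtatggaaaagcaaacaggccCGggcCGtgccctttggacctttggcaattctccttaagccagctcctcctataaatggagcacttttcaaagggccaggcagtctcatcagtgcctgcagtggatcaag
CpG content separated these windows. Cubn held 2 CpGs at 39.6% G+C and Apoa4 held 1 at 57.6%, while Apoa1 held 4, Apob 7 and Lrp2 18 at 66.4%. Over all 32851 windows of the same length the median was 6, with quartiles of 2 and 16. Motifs of endoderm regulators were searched on both strands. The HNF4 motif CAAAGTCCA (0.384% of all windows), the FOXA motif TGTTTAC (3.17%) and the GATA motifs AGATAA (9.99%) and TGATAA (7.94%) were in none of the 11 windows of the 9 genes. The SOX motif ATTGT (27.7%) was in 1 of 3 Apoe windows and in Apom. A match describes letters in a window and is no measured site.

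The order of the 10 genes in wild-type XEN cells was led by Apoe and Lrp2. Divided by exon length, Apoe, a carrier of lipids that many tissues make, stood at 194 ± 27.7 CPM per kb (SD, n = 2). Lrp2 followed at 47.3 ± 17.0 CPM per kb, then Ttr at 17.1 ± 9.80 and Cubn at 9.20 ± 2.42 CPM per kb. Apoe lay above Lrp2 in both libraries, and Lrp2 above Ttr in both, while Ttr and Cubn overlapped. Apoa1 stood at 3.79 ± 5.36 CPM per kb, from 1 library only. Apom, Amn and Apoa4 were at 0.686 ± 0.112, 0.571 ± 0.0577 and 0.466 ± 0.366 CPM per kb, neighbours whose ranges overlap. Apob, the structural protein of chylomicrons and VLDL, was at 0.195 ± 0.272 and Afp at 0.0100 ± 0.0142 CPM per kb. In wild-type EpiSC, Apoe (77.3 ± 16.8 CPM per kb) and Lrp2 (10.8 ± 0.277) stayed on top, no other gene had a mean above 0.154 CPM per kb, and Ttr and Apoa4 had 0 counts.

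**Figure D1:**
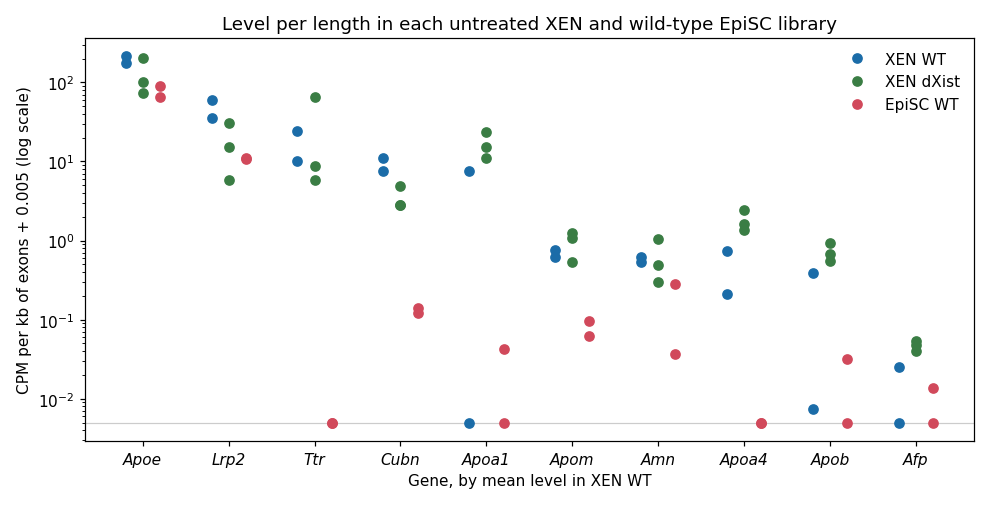
Level of each gene divided by exon length (CPM per kb plus 0.005, log axis, 1 point per library) in wild-type XEN, dXist XEN and wild-type EpiSC, ordered by the wild-type XEN mean. Apoe and Lrp2 lead in the wild type of both cell types, Lrp2 lies below Apoa1 or Ttr in each dXist XEN library, the 2 wild-type XEN points of Apoa1 lie at opposite ends, and the points of Ttr and Apoa4 in EpiSC sit on the line for 0 counts.

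Wild-type EpiSC and XEN cells were compared to see how far the 10 genes mark the XEN line. Of the 9 genes that passed the filter on low counts, 6 were lower in EpiSC by edgeR's quasi-likelihood test at an adjusted p under 0.05 (Benjamini-Hochberg over all genes tested), and none was higher. Over all 19733 genes tested, 14.1% were lower and 16.8% higher. The median log2 change of the 9 was -3.73, against 0.13 over all genes, and DESeq2 called 6 of them lower, beside 15.2% of all genes. Only Cubn, Lrp2 and Apoe also passed the filter among EpiSC libraries alone, so the shared direction of the 9 supports nothing beyond each gene's own values.

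Of the receptors, Cubn was read in wild-type XEN at 163 and 112 CPM and in wild-type EpiSC at 2.00 and 1.76 CPM. Both XEN libraries lay far above both EpiSC libraries. Cubn fell 73.2-fold in EpiSC (log2 change -6.13, SE 0.45, adjusted p = 6.9e-05) and was called in every one of 12 other settings, with adjusted p at most 0.00579. Lrp2 was at 590 and 991 CPM in XEN and at 183 and 177 CPM in EpiSC, with no overlap (4.39-fold lower, log2 change -2.06, SE 0.65, adjusted p = 0.0388). That call was lost when any 1 of the 4 wild-type libraries was left out (adjusted p 0.0703 without XEN replicate 1, 0.166 without XEN replicate 2, 0.169 without EpiSC replicate 1 and 0.138 without EpiSC replicate 2). Amn stood at 0.978 and 1.13 CPM in XEN and at 0.0578 and 0.509 CPM in EpiSC, without overlap. The change of -1.82 (SE 1.09) was not called (adjusted p = 0.216).

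Of the secreted carriers, Ttr was at 12.1 and 28.5 CPM in XEN and had no count in either EpiSC library. Ttr was therefore at least 381-fold lower in EpiSC, with the floor at 3 counts over the group (adjusted p = 0.00856, or 0.068 without EpiSC replicate 1). Afp had 2 counts and 0 counts in the wild-type XEN libraries and 1 and 0 counts in EpiSC, too few to be tested. Afp's neighbours in the albumin gene cluster, Alb and Afm, were at or near 0 as well, with Alb at no more than 0.112 CPM and Afm at no more than 0.165 CPM in any of the 13 libraries.

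Among the apolipoproteins, Apoe was at 374 and 458 CPM in XEN and at 140 and 191 CPM in EpiSC. These ranges do not overlap, but the change of -1.25 (SE 0.48, adjusted p = 0.0724) was not called. Apom, a lipocalin carried on HDL, was at 0.775 and 0.615 CPM in XEN and at 0.0578 and 0.0926 CPM in EpiSC (log2 change -3.11, SE 1.02, adjusted p = 0.048). Apom rests on 41 and 4 counts, and it was called in 4 of 12 other settings and in none that left a library out (adjusted p 0.0735 to 0.221). Apoa4, a chylomicron and HDL protein, was at 1.31 and 0.376 CPM in XEN with no count in EpiSC, at least 15.8-fold lower (adjusted p = 0.00943, or 0.0615 without EpiSC replicate 1).

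Apoa1, the main protein of HDL, and Apob were each read in 1 of the 2 wild-type XEN libraries. Apoa1 was at 9.37 and 0 CPM in XEN (278 and 0 counts) and at 0 and 0.0463 CPM in EpiSC (0 and 1 count). The ratio of XEN to EpiSC was 265, with a 95% counting interval of 47.2 to 10506, and edgeR called it (adjusted p = 0.0437). Without XEN replicate 1 the log2 change was 2.43 (adjusted p = 0.495), so both the call and its direction rest on that library. It was also not called without EpiSC replicate 1 or 2 (adjusted p 0.226 and 0.135) or in the polyA-like libraries alone (0.149). Apob was at 5.39 and 0.0342 CPM in XEN and at 0.376 and 0 CPM in EpiSC, and was not called (log2 change -3.73, SE 1.78, adjusted p = 0.135). Its change was 2.48 without XEN replicate 1, and it was called without XEN replicate 2 (-4.66, adjusted p = 0.038). XEN replicate 1 is the wild-type library with 86.5 CPM of intestinal genes, and the part of these genes in the Apoa1 and Apob results was not tested.

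**Figure D2:**
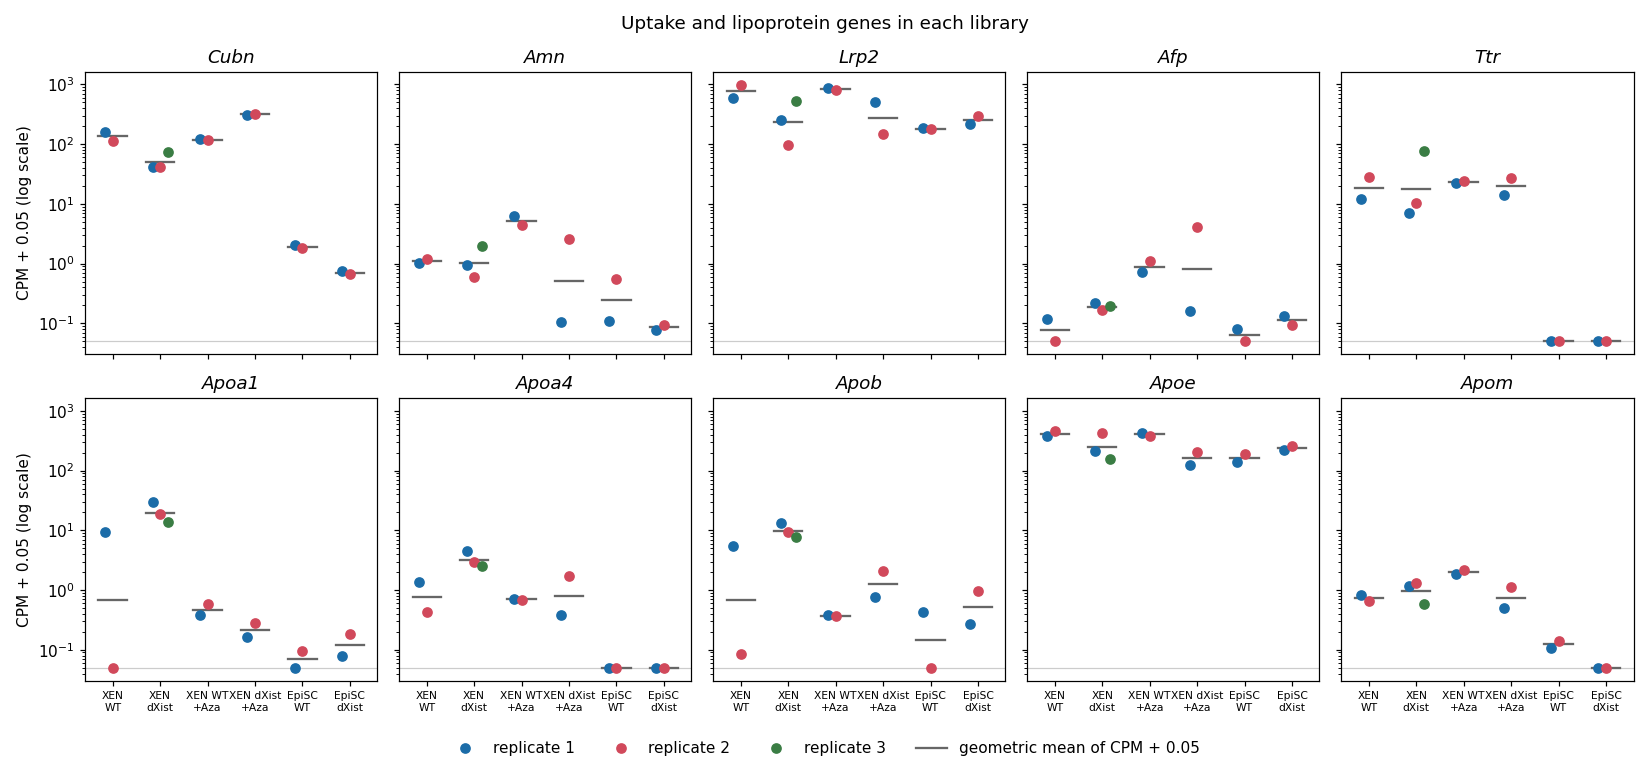
CPM of each gene in each library (CPM plus 0.05, log axis), with 1 point per library coloured by replicate number and a bar at the geometric mean of each group. Cubn is lowest in EpiSC and highest in treated dXist XEN, Ttr is read in all XEN and no EpiSC libraries, and Apoa1, Apoa4 and Apob are highest in the 3 dXist XEN libraries.

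Other genes of uptake and lipid transport were also compared between the cell types, beside 14.1% of all genes lower and 16.8% higher in EpiSC. The gene lists were chosen with earlier results of these data known, and members are left out of them. Of 33 endocytic receptors and adaptors tested, 11 were lower and 7 higher in EpiSC (median -0.57). Dab2, the adaptor that links megalin to clathrin, fell from 643 to 60.1 CPM (log2 change -3.37, SE 0.60, adjusted p = 0.00363). Vldlr, the VLDL receptor (log2 change -4.23, adjusted p = 0.000474), also fell. Sort1, a sorting receptor, rose by 3.41 (adjusted p = 0.000375), Cd36, a fatty acid and lipoprotein scavenger receptor, by 6.78 (adjusted p = 0.000847), and Tfrc, the transferrin receptor, by 2.06 (adjusted p = 0.00123).

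In lipoprotein assembly and transport, 11 of 28 genes tested were lower and 3 higher in EpiSC (median -2.27, or -2.10 with genes at 0 counts in a group at their bound). Mttp, which loads lipid onto Apob, fell from 137 to 9.34 CPM (log2 change -3.81, SE 0.44, adjusted p = 0.000451). Pltp, which transfers phospholipid between lipoproteins (log2 change -3.92, adjusted p = 0.000195), and Soat2, a cholesterol ester synthase of liver and intestine (log2 change -9.15, adjusted p = 0.000783), also fell. Angptl4, a lipoprotein lipase inhibitor, rose by 6.77 (adjusted p = 0.000554), the Apob mRNA editing enzyme Apobec1 by 5.73 (adjusted p = 0.00136) and the macrophage Apob receptor Apobr by 4.41 (adjusted p = 0.00239). Of 14 secreted plasma protein genes tested, 4 were lower and 4 higher. Cst3, F2 and Rbp4 were among the lower, and F2, prothrombin, was at 24.2 ± 1.20 CPM in XEN and 0.0145 ± 0.0204 CPM in EpiSC (n = 2 each). Cp and A2m were among the higher.

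Of 27 liver and endoderm transcription factors tested, 13 were lower and 6 higher in EpiSC. Gata4, Sox17 and Sox7 had the smallest adjusted p-values, all 3.25e-05. Hnf4a, a nuclear receptor at the top of the liver programme, was at 23.4 and 31.7 CPM in wild-type XEN and had no count in EpiSC. In dXist XEN Hnf4a was at 5.82, 6.59 and 40.6 CPM, a range that encloses the wild type. Foxa2 was at 86.1 to 182 CPM over the 9 XEN libraries.

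The deletion in XEN cells was compared with untreated wild type over the same genes. None of the 10 was called by edgeR among 18393 genes, 0.0217% of which were called in either direction. Cubn alone had an unadjusted p under 0.05, as 10.7% of all genes did, and DESeq2 called 1, beside 2.57% of all genes. Cubn read 163 and 112 CPM in wild-type libraries, and 42.1, 41.8 and 73.1 CPM in dXist libraries. Every dXist library lay below both wild-type libraries, with a 2.63-fold lower mean (log2 change -1.41, SE 0.35, unadjusted p of 0.00262, adjusted p = 0.289). Adjusted p ran from 0.0311, without dXist replicate 3, to 0.768 over the 14 settings, and the change was negative in all 14.

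Lrp2 gave a like difference with a wider spread. It read 590 and 991 CPM without the deletion, and 253, 97.4 and 518 CPM with it, with no overlap, a mean 2.73-fold lower and a change of -1.45 (SE 0.67, adjusted p = 0.481). Dab2 was at 477 and 808 CPM against 1197, 648 and 1251 CPM and Mttp at 122 and 153 against 33.9, 38.7 and 80.4 CPM, neither called (adjusted p = 0.607 and 0.318). Amn was at 0.898, 0.546 and 1.92 CPM in dXist, a range that encloses the wild type (change 0.09, SE 1.09, adjusted p = 0.991).

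Ttr was uneven among the dXist libraries. It was at 6.95 and 10.3 CPM in replicates 1 and 2 and at 76.9 CPM in replicate 3, on either side of the wild-type 12.1 and 28.5 CPM. The change of 0.64 (SE 0.92, adjusted p = 0.836) became -1.25 without dXist replicate 3. Hnf4a (5.82, 6.59 and 40.6 CPM) and Ihh, a hedgehog ligand of the visceral endoderm (4.86, 19.7 and 173 CPM), were highest in the same library. Other genes of the visceral list went the other way. Soat2 (90.5, 141 and 15.5 CPM) and Cdh1 (17.0, 10.8 and 3.46 CPM) were lowest there. Afp had 5, 3 and 4 counts in dXist, a ratio to the wild type of 4.22 with a counting interval of 0.940 to 38.8 (edgeR adjusted p = 0.69).

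Apoa1, Apoa4 and Apob were highest in dXist XEN cells of all groups. Apoa1 was at 29.4, 19.1 and 13.8 CPM, above the wild-type 9.37 and 0 CPM, with a change of 2.10 (SE 1.43, adjusted p = 0.618). Apob was at 13.01, 9.25 and 7.63 CPM against 5.39 and 0.0342 CPM (change 1.83, SE 1.28, adjusted p = 0.627). Apoa4 was at 4.46, 2.93 and 2.46 CPM against 1.31 and 0.376 CPM (change 1.92, SE 0.89, adjusted p = 0.48). For all 3 the groups did not overlap and none was called. How many of all genes separate these groups is not given, so this describes the values only. Without wild-type replicate 1, Apoa1 was called (change 11.82, adjusted p = 0.0306), since the remaining wild-type library has 0 counts of it.

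Most of the 23 genes of intestinal tissue had the same order of libraries. For 18 of them it was dXist replicates 1, 2 and 3, then wild-type replicate 1, and all 23 were lowest in wild-type replicate 2 of these 5 libraries. Lct, Krt20, Lgals4, Muc2 and Defa24 had another order among the first 4. The 23 genes were picked after their values were seen, so these counts describe the list and are no test. Fabp2, the intestinal fatty acid binding protein, was at 11.2 and 0 CPM in wild-type replicates 1 and 2, and at 32.4, 22.3 and 18.3 CPM in dXist replicates 1 to 3. Reg3b, an antimicrobial lectin, was at 11.0 and 0 against 29.6, 20.4 and 14.3 CPM, and Sis, sucrase-isomaltase, at 7.89 and 0 against 22.0, 14.0 and 10.4 CPM. Immunoglobulin genes of plasma cells followed, with Igha at 5.26 and 0 against 13.8, 8.23 and 7.66 CPM. Cdx1 and Cdx2, regulators of the intestinal fate, were low throughout, at no more than 0.399 and 0.824 CPM.

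The counts of these genes were compared with those of Fabp2 in the 4 libraries. Apoa1 had 0.753 to 0.907 counts per Fabp2 count, Apob 0.401 to 0.483 and Apoa4 0.118 to 0.137, so that highest and lowest differed by 1.20-fold, 1.21-fold and 1.17-fold. For Sis, Reg3b and Igha the same spread was 1.25-fold, 1.27-fold and 1.28-fold, and for Apoc3 it was 1.71-fold. Over the 22 intestinal genes other than Fabp2 it ran from 1.13-fold to 2.75-fold (Muc2), with a median of 1.44-fold. For Mttp it was 10.4-fold, for Cubn 11.3-fold, for Ttr 19.6-fold and for Apoe 5.06-fold. It was not taken for Lrp2, Amn, Apom or Afp, so these values do not set Apoa1, Apob and Apoa4 apart from those genes. Fabp2 was also the gene that ran most like Apoa1 and Apob over the XEN libraries. A narrow spread for these genes was therefore partly set by the choice of Fabp2. The marker list for liver and intestine, with 10 genes, summed to 11.4 and 0.103 CPM in wild-type libraries and to 30.2, 20.2 and 14.8 CPM in dXist, with 3 and 9 and then 2, 3 and 3 of the 10 at 0 counts. Alb, its liver marker, was at 0 or, in dXist replicate 1, at 0.0998 CPM. What part these genes have in the Apoa1, Apoa4 and Apob values was not tested.

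**Figure D3:**
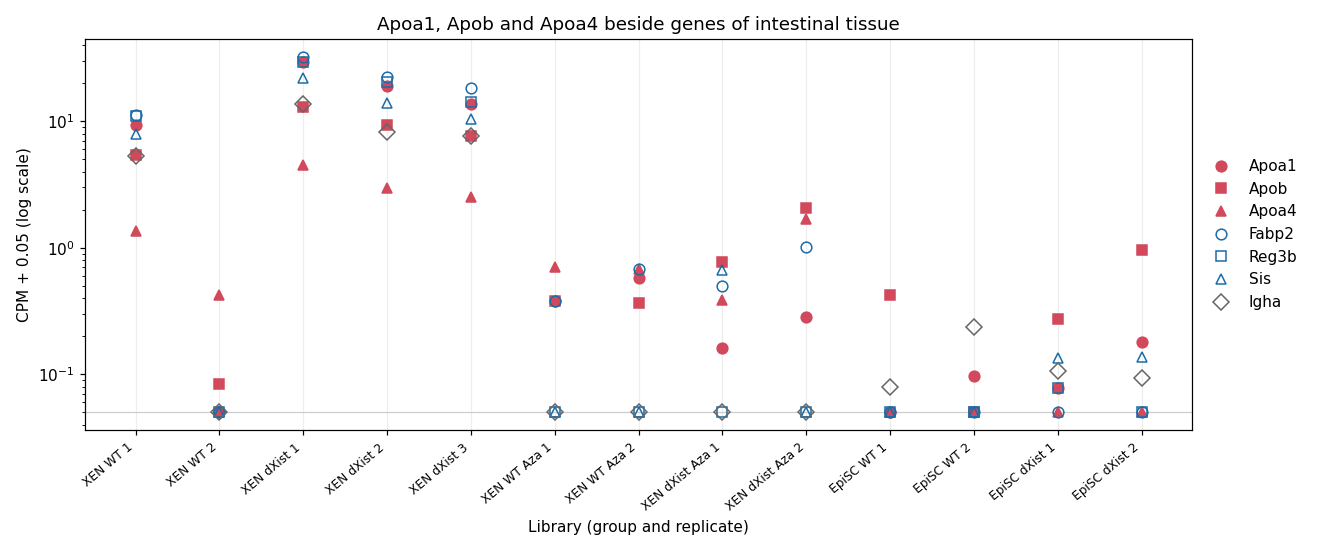
CPM plus 0.05 (log axis) of Apoa1, Apob and Apoa4 (filled) and of Fabp2, Reg3b, Sis and Igha (open) in each of the 13 libraries. Among dXist XEN replicates 1 to 3 and wild-type XEN replicate 1 all 7 genes fall in that order, and they lie at 2.00 CPM or less in every other library, where Apoa4 in treated dXist replicate 2 (1.64 CPM) is above wild-type XEN replicate 1 (1.31 CPM).

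Apoe and Apom held smaller differences in dXist XEN. Apoe was at 215, 433 and 157 CPM against 374 and 458 CPM in the wild type, which overlap (change -0.64, SE 0.44, adjusted p = 0.625). Apom was at 1.10, 1.25 and 0.535 CPM against 0.775 and 0.615 CPM, also overlapping (change 0.44, SE 0.73, adjusted p = 0.865). In the lists around the 10 genes edgeR called nothing in dXist XEN. Of 33 endocytic receptors and adaptors 4 had an unadjusted p under 0.05 (DESeq2 called 1 higher and 1 lower), of 29 lipoprotein genes 5 (DESeq2 1 and 2), of 16 plasma protein genes 4 (DESeq2 1 and 0) and of 24 transcription factors 5 (DESeq2 0 and 1), beside the 10.7% and 2.57% of all genes. The smallest p among the receptors belonged to Tfrc (change 1.92, adjusted p = 0.166) and Lrp1, an LDL receptor relative (change -2.99, adjusted p = 0.192).

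**Figure D4:**
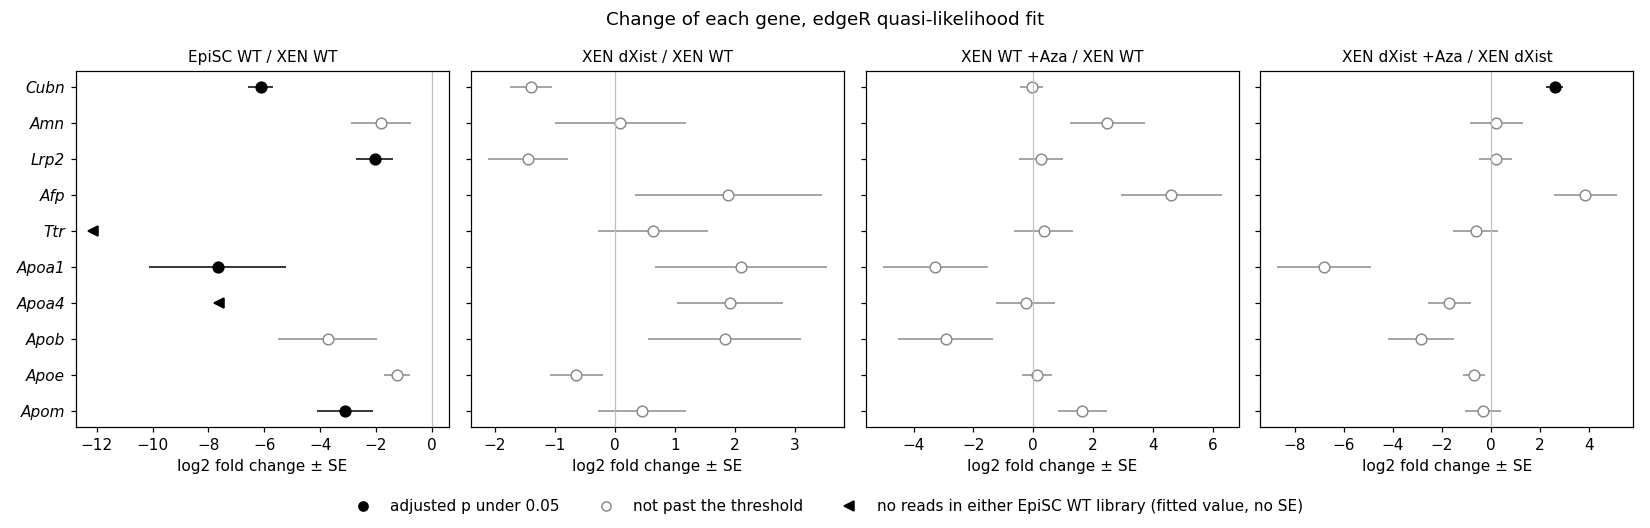
Log2 fold change of each gene with its standard error in 4 comparisons, from edgeR's quasi-likelihood fit. Filled symbols mark an adjusted p under 0.05, of which 6 lie in the EpiSC comparison and 1, Cubn, in treated against untreated dXist XEN. Triangles mark Ttr and Apoa4, which have 0 counts in wild-type EpiSC and whose fitted value is no measured fold.

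Aza was given to both XEN genotypes. In treated dXist XEN cells Cubn alone of the 10 genes was called, higher than in untreated dXist cells, at a background of 0.0707% of 18393 genes called higher. Cubn was at 305 and 326 CPM after treatment and at 42.1, 41.8 and 73.1 CPM before. The treated libraries were close together and above every other library of the series, and Cubn rose 6.03-fold (log2 change 2.59, SE 0.36, adjusted p = 0.0498). That value lies at the threshold. The smallest adjusted p of any gene in this comparison was also 0.0498. The 13 genes called higher and 1 called lower thus all lay between 0.0498 and 0.05, which does not rank Cubn among them. Over 13 other settings the change of Cubn lay between 2.45 and 2.93, and not all of them called it. The call was lost without dXist replicate 1 (adjusted p = 0.183) or dXist replicate 2 (0.179). It was also lost in a fit of these groups alone (0.118), in the polyA-like libraries alone (0.151) and without histone genes and RNAs lacking poly(A). Without treated replicate 1, or without treated replicate 2, the library with 233 CPM of Xist, the change stayed within those limits. Either fit holds 1 treated dXist library, so its p-value is not used here.

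Lrp2 was at 513 and 149 CPM after treatment, inside the range of the untreated 253, 97.4 and 518 CPM (change 0.19, SE 0.68, adjusted p = 0.875). Amn was at 0.0559 and 2.50 CPM, with 1 treated library below and 1 above all untreated ones (change 0.21, SE 1.08, adjusted p = 0.914). Without treated replicate 2 the change of Amn was -4.23, from 1 treated library with 1 count. Lrp2 and Amn, whose proteins work with cubilin, were thus not called with all libraries. With 0.0707% of all genes called higher, this does not set them apart from other genes, and their standard errors are wide. Cubn's genomic neighbours on either side, Rsu1 and Trdmt1, were at 142 and 43.2 and at 20.3 and 12.7 CPM after treatment, and at 29.6 to 51.5 and 8.04 to 11.9 CPM before.

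Afp split the treated dXist libraries, at 0.112 CPM (2 counts) in replicate 1 and 4.07 CPM (122 counts) in replicate 2, against 0.117 to 0.166 CPM before. The change was 3.85 (SE 1.27, adjusted p = 0.11) and -0.36 without treated replicate 2. Trf, the transferrin gene, was also higher in replicate 2, at 1.73 and 7.51 CPM, against 0.117 to 0.606 CPM before (adjusted p = 0.0784). Dpp4 (285 and 53.0 CPM) and Spink1 (176 and 46.3 CPM), also of the visceral list, were higher in replicate 1. Ttr was at 14.3 and 27.0 CPM, inside the untreated range (change -0.61, SE 0.92, adjusted p = 0.689).

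Apoa1, Apob and Apoa4 were all lower in treated dXist cells and none was called. Apoa1 was at 0.112 and 0.234 CPM (2 and 7 counts), below 13.8 to 29.4 CPM before (120-fold lower mean, change -6.80, SE 1.90, adjusted p = 0.0862). DESeq2 called it (adjusted p = 0.00533), as did 2 other of 13 settings. Apob was at 0.727 and 2.00 CPM (change -2.84, SE 1.35, adjusted p = 0.208) and Apoa4 at 0.336 and 1.64 CPM (change -1.70, SE 0.88, adjusted p = 0.24), both below every untreated library. Fabp2 was at 0.448 and 0.968 CPM and Reg3b at 0 in these libraries, and the 23 intestinal genes summed to 6.21 and 5.54 CPM, against 112 to 219 CPM before. The part of those genes in this difference was not tested. Apoe was at 124 and 207 CPM (change -0.69, SE 0.46, adjusted p = 0.348) and Apom at 0.448 and 1.07 CPM (change -0.31, SE 0.73, adjusted p = 0.806).

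In wild-type XEN cells none of the 10 genes was called after Aza, at a background of 0.582% of genes called in either direction. One had an unadjusted p under 0.05, beside 12.4% of all genes, and DESeq2 called 0, beside 3.63%. The 2 treated libraries agreed closely, and all of their differences share the change of library type. Cubn was at 122 and 115 CPM, beside 163 and 112 CPM untreated (change -0.05, SE 0.39, adjusted p = 0.972). Lrp2 was at 872 and 814 CPM (0.26, SE 0.75, adjusted p = 0.927), Ttr at 22.1 and 24.0 CPM (0.35, SE 0.99, adjusted p = 0.925) and Apoe at 432 and 376 CPM (0.12, SE 0.49, adjusted p = 0.949). All 4 overlapped their untreated values.

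Afp, Amn and Apom stood above both untreated wild-type libraries. Amn was at 6.27 and 4.30 CPM against 0.978 and 1.13 (change 2.48, SE 1.25, adjusted p = 0.461), and Apom at 1.81 and 2.10 against 0.775 and 0.615 CPM (1.64, SE 0.82, adjusted p = 0.46). Afp had 4 and 10 counts against 2 and 0, a ratio of 26.5 with a counting interval of 6.08 to 239.8 (adjusted p = 0.319). Apoa1 was at 0.330 and 0.525 CPM (-3.27, SE 1.76, adjusted p = 0.492), Apob at 0.330 and 0.315 CPM (-2.93, SE 1.60, adjusted p = 0.497) and Apoa4 at 0.660 and 0.630 CPM (-0.25, SE 0.99, adjusted p = 0.949). For these last 3 the sign turned without wild-type replicate 1, to 6.44, 3.20 and 0.94.

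Whether Aza acted differently in the genotypes was tested by the interaction, dXist minus wild type. None of the 10 genes was called by edgeR, at a background of 0.245%. Cubn alone had an unadjusted p under 0.05, beside 8% of all genes, and DESeq2 called 1, beside 1.21%. For Cubn there was a difference between the 2 treatment changes of 2.65 (SE 0.53, unadjusted p of 0.000591, adjusted p = 0.153, and 0.00225 by DESeq2). It was called without dXist replicate 3 (adjusted p = 0.0455), and it ran from 2.31 to 2.98 with any 1 library left out. Library type changed in 1 arm only, so type and genotype cannot be told apart in this difference. The other 9 differences lay between -3.53 and 0.09.

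Treated dXist cells were also set beside treated wild-type cells. None of the 10 genes was called, against 0.647% of all genes in either direction. At an unadjusted p under 0.05 there were 2, beside 16.7% of all genes, and DESeq2 called 0, beside 5.89%. Cubn was at 305 and 326 CPM against 122 and 115 CPM (change 1.24, SE 0.39, adjusted p = 0.202). Apoe was at 124 and 207 CPM against 432 and 376 CPM (change -1.46, SE 0.50, adjusted p = 0.222). Neither gene's groups overlapped, and these groups differ in library type as well. The other 8 changes lay between -2.18 and 1.92.

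In EpiSC the heterozygous Xist deletion was compared with the wild type for the 3 genes that passed the filter, Cubn, Lrp2 and Apoe. None was called by edgeR among 17132 genes, and 0% of all genes were. One had an unadjusted p under 0.05, beside 10.2% of all genes, and DESeq2 called 0, beside 2.8%. Cubn read 0.700 and 0.610 CPM in dXist EpiSC, and 2.00 and 1.76 CPM in wild-type EpiSC, 39 against 107 counts with no overlap (change -1.49, SE 0.49, adjusted p = 0.421). Within library type the differences on the scale of log2(CPM + 0.2) were -1.29 for the polyA-like pair and -1.27 for the total-like pair. In a fit of these 4 libraries with library type as a term, which here equals the replicate number and leaves 1 residual degree of freedom, Cubn was lower (change -1.48, adjusted p = 0.020), and 6.53% of all genes were called lower. This was the only one of 11 settings that called Cubn, and a model of the whole series that held a library type term did not (adjusted p = 0.751).

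Lrp2 read 217 and 297 CPM in dXist EpiSC, and 183 and 177 CPM in wild-type EpiSC (change 0.55, SE 0.32, adjusted p = 0.63). Apoe was at 220 and 263 against 140 and 191 CPM (change 0.57, SE 0.34, adjusted p = 0.635). In both genes every dXist library lay above both wild-type libraries, without a share of all genes to set beside it. Ttr and Apoa4 had no count in any of the 4 EpiSC libraries, Apom had 4 counts in the wild type and 0 in dXist, and Apob was at 0.376 and 0 against 0.224 and 0.915 CPM. Amn had 13 and 2 counts, Apoa1 1 and 4, and Afp 1 and 4.

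The effect of the deletion was then compared between the cell types. None of the 9 genes tested differed by edgeR, 0.0101% of all genes did, 2 of the 9 had an unadjusted p under 0.05, beside 10.3% of all genes, and DESeq2 called 0, beside 2.42%. Lrp2 had a difference of 2.01 between its changes in EpiSC and XEN (SE 0.85, unadjusted p of 0.0406, adjusted p = 0.46), from means of 180.03 to 257 CPM in EpiSC and 790 to 290 CPM in XEN, wild type to dXist. Apom had a difference of -4.64 (SE 1.73, adjusted p = 0.433) that rests on 4 EpiSC counts. For Cubn the deletion changes were similar in size, -1.49 in EpiSC and -1.41 in XEN, each in its own fit, and a difference of -0.06 (SE 0.48) was estimated.

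Genes that ran most like each member but Afp over the 9 XEN libraries were taken by Pearson correlation of log2(CPM + 0.2). They came from 10067 or 10068 protein-coding genes with a mean of at least 5 CPM. Afp was left out because its mean over these libraries was under 1 CPM. These correlations describe 9 libraries that differ in genotype, treatment and library type, so differences between groups enter them. Cubn ran with Gas2l3, Asb7 and Arhgap18 (r = 0.966, 0.960 and 0.953) and Lrp2 with Ppp1r16b, Spink1 and Eno1 (0.964, 0.962 and 0.942). Spink1, a trypsin inhibitor also found in visceral endoderm, read 105 and 236 CPM in untreated wild-type XEN, and 56.9, 15.2 and 101 CPM in untreated dXist. Ttr ran with Stat2, Dtx3l and Parp9 (0.954, 0.917 and 0.916), 3 genes of the interferon response that were all highest in dXist replicate 3, with Stat2 at 221 CPM there and at 28.8 to 105 CPM elsewhere in XEN.

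Apoa1 ran with Fabp2, Reg3b and Lgals4, a galectin of the gut lining (0.986, 0.984 and 0.981). Apob ran with Fabp2, Lgals4 and Slc6a15 (0.974, 0.933 and 0.932), and Apoa4 with Mob3c, Lemd3 and Serp1 (0.939, 0.939 and 0.926). Amn ran with Tmem184b, Tor4a and Dysf (0.952, 0.945 and 0.937), Apoe with Serinc2, Isyna1 and Irs2 (0.936, 0.926 and 0.914) and Apom with Ahnak, Cd81 and Nfkbia (0.962, 0.955 and 0.912). Among the 10 genes themselves Apoa1, Apoa4 and Apob correlated at 0.882 to 0.927, Cubn and Lrp2 at 0.236, and Cubn and Amn at -0.04.

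Apoa1, Apoa4 and Apoe lie in 2 clusters of apolipoprotein genes. On chromosome 9 Apoa1 (46228580 to 46230466) and Apoa4 (46240696 to 46243459) flank Apoc3, a regulator of lipoprotein lipase. Apoc3 was at 0.438 and 0 CPM in wild-type XEN, at 0.998, 0.858 and 0.962 CPM in dXist and at no more than 0.210 CPM elsewhere. Apoa5 beyond them had no more than 0.0560 CPM in any library. On chromosome 7 Apoe (19696109 to 19699188) lay beside Apoc1, which had 0 to 0.840 CPM in XEN and 0.492 to 2.44 CPM in EpiSC, and Apoc4, which had at most 0.0390 CPM. Apoe itself stood at 124 CPM or more in every library.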

How the data were processed

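The authors deposited 1 table of gene counts for 13 bulk RNA-seq libraries. Per the submitters' processing notes, the tools include FastQC, STAR 2.7.9a and featureCounts 2.0.1, and the builds GRCm38 and mm10; those notes do not say whether counting used strand. Samples were grouped by their labels. Of 38377 Ensembl identifiers, 99.64% matched the GRCm38 annotation.

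Counts were scaled by TMM and tested with edgeR 4.0.16 (R 4.3.3, limma 3.58.1) by the robust quasi-likelihood F test after filterByExpr, in 3 fits: XEN (5 residual degrees of freedom), EpiSC (2) and untreated cells (5). p-values were adjusted by Benjamini-Hochberg over all genes tested, at a threshold of 0.05. The XEN and EpiSC fits were tested on simulated data first. The floor was 3 counts, and 95% intervals of ratios cover counting error only. In the interaction tests and the comparison of treated genotypes, single changes are given for genes with an unadjusted p under 0.05, Cubn besides, and the others as a range.

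The 10 genes and all gene lists were chosen with earlier results of these data known. List genes were named by smallest adjusted p, up to 3 in each direction (2 by smallest p where none was called), among genes with a mean of at least 1 CPM in a group, and the genes most like a member as the 3 with the highest correlation; other list genes and neighbours named were chosen after their values were seen. Some genes that this rule names, and a motif, are not reported here. Alternatives were DESeq2 1.42.0, its size factors, no filter, a replicate block, leaving out each library, leaving out RNAs without poly(A) and histone genes, fitting only the compared groups, and library type as a term. The list of 23 intestinal genes and the fits on polyA-like libraries alone were chosen after seeing the data. Same-numbered XEN libraries did not deviate together (correlations of -0.0289 to 0.142), and same-numbered EpiSC libraries did (0.806), where the number equals the library type.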

Additional observations from a re-analysis of the deposited data

How the results depend on the processing

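Cubn stayed called lower in EpiSC than in XEN under all 12 alternatives, and most other calls rest on few libraries. Calls over all genes moved with the setting as well. For Aza in dXist, 13 genes were called higher and 1 lower in the main fit. DESeq2 called 1541 and 1091, the fit without a filter 1377 and 1373, and library type as a term 1094 and 299. For the deletion in XEN the main fit called 0 and 4. DESeq2 called 174 and 281 there, the fit without a filter 303 and 381, and the replicate block 112 and 256. The number of the 10 genes called moved as follows, and the cause was not tested. Calls over all genes not given above stand beside it. With DESeq2 it was 1 for the deletion in XEN, 3 for Aza in dXist and 1 for the Aza interaction (72 higher and 134 lower of 16982 genes). Without a filter it was 2, 4 and 1 for these (189 higher and 148 lower of 35682 genes for the interaction). It was then 1 for Aza in wild type (519 higher and 228 lower of 35682). It was 1 for the deletion effect between cell types (281 higher and 335 lower of 34931). With the replicate block it was 1 for the deletion in XEN (Cubn -1.72, adjusted p = 0.0478). It was 1 in EpiSC (841 higher and 1119 lower of 17132 genes). The block also ended the call of Apoa1 between cell types (adjusted p = 0.122). It called Apoe there (0.0113), beside 4306 genes higher and 3587 lower of 19733. For Aza in dXist it was 0 without poly(A)-less and histone RNAs, in the compared groups alone and in polyA-like libraries. No gene at all was called in those settings. With library type as a term it was 2. It was 1 for Aza in wild type in the compared groups alone (643 higher and 284 lower of 15321 genes). Between cell types the polyA-like libraries hold 1 wild-type EpiSC library, so no number is given there. Leaving out 1 library gave 0 to 2 for the Aza interaction, 1 to 5 between cell types, 0 to 1 for the deletion in XEN, 0 to 2 for Aza in dXist and 0 to 1 between treated genotypes.

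Direction turned with the block for Amn (-0.50) and Ttr (-1.18) under the deletion in XEN and for Ttr (1.23) under Aza in dXist, and with library type for Apoe (-0.43) and Lrp2 (-0.13) under Aza in wild type. With 1 library left out, log2 changes between cell types ran from -10.09 to 2.43 for Apoa1 and from -9.21 to 2.48 for Apob. Under the deletion in XEN they ran from -0.56 to 0.42 for Amn and from -1.25 to 1.37 for Ttr. Under Aza in dXist they ran from -0.36 to 4.77 for Afp, -4.23 to 1.13 for Amn, -1.12 to 0.14 for Apom, -0.98 to 0.95 for Lrp2 and -1.18 to 1.28 for Ttr. Under Aza in wild type they ran from -4.33 to 6.44 for Apoa1, -0.96 to 0.94 for Apoa4, -3.98 to 3.20 for Apob, -0.0087 to 0.20 for Apoe, -0.39 to 0.26 for Cubn, -0.062 to 0.58 for Lrp2 and -0.14 to 0.99 for Ttr. None of the changes that turned was called with all libraries, except Apoa1 between cell types. The main tests did not pair XEN libraries by replicate number. Treated and untreated dXist XEN libraries 1 and 2 share a name in the labels, and whether they are paired is not stated. Within these names, the treated minus untreated differences of log2(CPM + 0.2) were 2.85 and 2.96 for Cubn. They were 1.02 and 0.61 for Lrp2, and -2.10 and 1.86 for Amn. Afp had 10 counts or fewer in 12 of 13 libraries, where depth limits what could be seen.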
